A study of Mus musculus with 2 samples.

Results

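Splenic regulatory T cells (Tregs) of mice, from a CD25KO and a CD25WT library, were examined for the cells in which no transcript of Ikzf2 was captured. Ikzf2 encodes Helios, a zinc-finger transcription factor of the Ikaros family. The cells were chosen by a count alone: a cell entered if it had zero Ikzf2 unique molecular identifiers (UMIs, each a single captured transcript), at least 500 detected genes, at most 10% mitochondrial UMIs, 3000 to 10000 UMIs in all, at least 1 Cd3e or Cd3g UMI and no Cd79a UMI. Of 14150 barcodes in both libraries, 9980 passed these filters and 2403 of those had zero Ikzf2 UMIs. They are called Ikzf2-zero cells here and were set against the 5140 cells with 4 or more Ikzf2 UMIs, called Ikzf2-high cells, within each library first. Ikzf2, Cd3e, Cd3g and Cd79a chose the cells, so their levels are a description and support nothing.

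The CD25KO library came from CD25FL/FL-tdTomato+/+-Foxp3eGFPCretERT2+/+ mice and the CD25WT library from CD25WT/WT-tdTomato+/+-Foxp3eGFPCretERT2+/+ mice. CD25, the product of Il2ra, is the chain that gives the receptor of interleukin-2 (IL-2) its high affinity. Both genotypes carry the tdTomato reporter and the Foxp3-driven, tamoxifen-dependent Cre recombinase with its GFP tag, and both were given 2 mg/kg tamoxifen by intraperitoneal injection for 5 days. Each library pooled 2 spleens, collected 10 days after that induction. Live cells were sorted on CD4, GFP and tdTomato, and CD25KO cells alone were further gated on low CD25, so the genotype and the gate cannot be told apart. There was 1 library per group: no comparison has replicates, no p-value is given, and every interval is a 95% interval for counting error only. No source used here gives age or sex.

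Helios is found in most Tregs that arise in the thymus and in fewer of those that form outside it, and it is widely used as a marker of the thymic origin, although activated T cells can also make it. Tregs with little Helios are known to include resting cells that circulate through lymphoid organs and cells that formed in tissues such as the gut. A count of zero in a cell is not proof that it made no Helios, because each cell gave only a small sample of its transcripts.

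CD25KO held 732 Ikzf2-zero cells among 4813 filtered cells (15.2%, interval 14.2% to 16.3%), and CD25WT held 1671 among 5167 (32.3%, interval 31.1% to 33.6%). The 4-or-more class was the mirror of this, with 3265 CD25KO cells (67.8%) and 1875 CD25WT cells (36.3%). The median cell had 7 Ikzf2 UMIs in CD25KO and 2 in CD25WT. Just outside the zero class lay 316 CD25KO cells and 707 CD25WT cells with 1 UMI. On either side of the upper limit, 241 CD25KO cells had 4 UMIs and 229 had 3, against 294 and 398 in CD25WT.

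The share of Ikzf2-zero cells was lower in CD25KO in each of 5 depth bins, and the CD25-low gate and the genotype cannot be told apart as its source. It ran from 7.58% to 18.2% over the bins of total UMIs in CD25KO and from 19.4% to 38.1% in CD25WT. With every cell thinned to 3000 UMIs, the share was 19.3% in CD25KO and 41.9% in CD25WT. Few B cells, taken as cells with 2 or more Cd79a UMIs and no Cd3e or Cd3g UMI, had an Ikzf2 UMI. It was found in 1 of 16 in CD25KO (median 4195 UMIs) and 0 of 10 in CD25WT (median 4590.5 UMIs). Because 0 of 10 still allows a share of up to 30.8%, these cells do not settle the level of free RNA. Among filtered cells with both Cd8a and Cd8b1 UMIs, 8 of 9 in CD25KO and 6 of 6 in CD25WT had an Ikzf2 UMI.

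**Figure D1:**
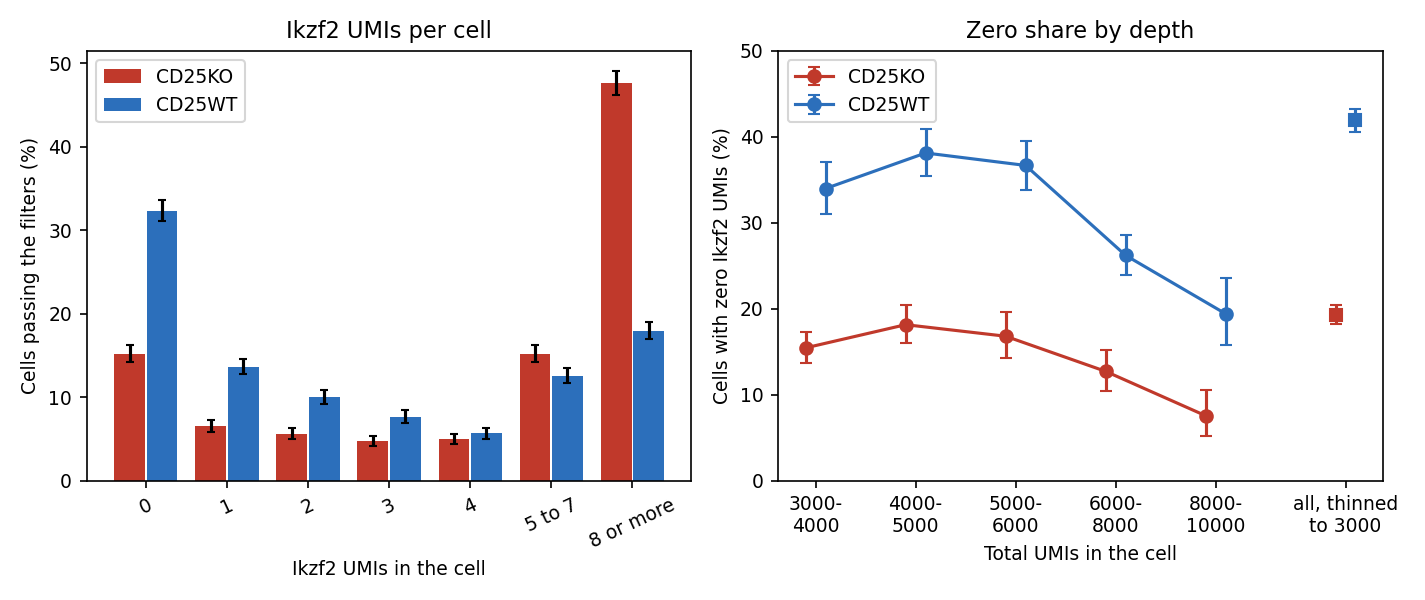
Left, percent of filtered cells (y axis) by the number of Ikzf2 UMIs in the cell (x axis). Right, percent of cells with zero Ikzf2 UMIs by total UMIs in the cell, with the thinned value at the far right. Red is CD25KO and blue CD25WT, and bars or whiskers at each value are 95% Clopper-Pearson intervals. Zero is the tallest class in CD25WT, while 47.6% of CD25KO cells have 8 or more UMIs.

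The filters had already required a CD3 chain, so T cell genes are no check of the label, and the CD4 lineage rests on the sort. Cd4 was found in 44.4% of Ikzf2-zero and 56.6% of Ikzf2-high cells in CD25KO, and in 40.3% and 48.2% in CD25WT. Thinned, the Cd4 shares were 32.5% and 41.4% in CD25KO and 27.1% and 32.6% in CD25WT. Cd8b1, of the CD8 receptor, was found in 5.05% and 5.18% in CD25KO and in 4.37% and 5.39% in CD25WT. Markers of Tregs were present at a lower level than in Ikzf2-high cells. At least 1 UMI of Foxp3, Il2ra, Ctla4, Tnfrsf18 or Ikzf4 was found in 61.5% of Ikzf2-zero cells and 89.9% of Ikzf2-high cells in CD25KO, and in 72.6% and 91.0% in CD25WT. Thinned to 3000 UMIs, these shares were 49.5% and 79.5% in CD25KO and 57.4% and 78.1% in CD25WT. Foxp3 itself, the factor that defines the lineage and drives the sorted reporter, was found in 6.97% of Ikzf2-zero cells and 11.5% of Ikzf2-high cells in CD25KO, and in 13.9% and 17.4% in CD25WT. Thinned, the Foxp3 shares were 5.19% and 7.63% in CD25KO and 8.86% and 10.5% in CD25WT, with overlapping intervals in both libraries. No Foxp3 UMI was seen in the 16 CD25KO or 10 CD25WT B cells. Foxp3 was thus captured rarely in every class.

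Depth and composition differed between the classes as well as the libraries. Ikzf2-zero cells had a median of 4451 UMIs and 1480 genes and Ikzf2-high cells 4698 UMIs and 1754 genes in CD25KO, against 5047 UMIs and 1522 genes and 5486 UMIs and 1758 genes in CD25WT. Ribosomal protein genes took 38.6% of UMIs in Ikzf2-zero and 29.3% in Ikzf2-high cells of CD25KO, and 42.1% and 36.9% in CD25WT. Because values are shares of all UMIs (counts per 1000000 UMIs, CPM), the median gene stood at a log2 ratio of -0.22 (zero over high) in CD25KO and -0.17 in CD25WT, and a ratio is best read against that shift. The part of composition in single results was not tested.

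Summed markers of other lineages were lower in the Ikzf2-zero cells when cells of all depths were summed. The 9 B cell genes summed to 273 CPM in Ikzf2-zero and 683 CPM in Ikzf2-high cells of CD25KO, and to 244 and 330 CPM in CD25WT; 2 of the 9 were at 0 in each Ikzf2-zero class. The 11 genes of CD8 and cytotoxic cells summed to 130 and 542 CPM in CD25KO and to 23.0 and 131 CPM in CD25WT, the 5 erythroid genes to 169 and 663 CPM in CD25KO and to 171 and 758 CPM in CD25WT, the 8 myeloid genes to 97.6 and 163 CPM in CD25KO and to 108 and 126 CPM in CD25WT, and the 5 innate-like genes to 26.9 and 34.5 CPM in CD25KO and to 29.1 and 32.4 CPM in CD25WT. In cells with 4000 to 6000 UMIs the erythroid median within CD25KO was 0.68, the other direction. Of the 3 measured CD8 and cytotoxic genes, Nkg7 and Ccl5 were at least 1.5-fold lower in both libraries, while Cd8b1 had 0.02 and -0.27. Ccl5 is also on the effector list, so that sum does not count CD8 cells. Per cell and thinned, at least 1 B cell marker UMI was found in 39.1% of Ikzf2-zero and 60.7% of Ikzf2-high cells in CD25KO, and in 44.1% and 44.7% in CD25WT, and an innate-like marker in 0.273% and 1.04% in CD25KO and in 1.44% and 1.07% in CD25WT. Their part in the results below was not tested. Barcodes shared by both matrices numbered 107, of which 12 in CD25KO and 15 in CD25WT passed the filters.

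The targeted gene, Il2ra, stood at 32.1 CPM in Ikzf2-zero and 30.4 CPM in Ikzf2-high cells of CD25KO, against 94.2 and 148 CPM in CD25WT. It was lower in CD25KO in both classes, by a log2 ratio of -1.56 in Ikzf2-zero and -2.28 in Ikzf2-high cells. Within CD25WT, Il2ra was lower in Ikzf2-zero cells, at -0.65 (interval -0.77 to -0.53), and within CD25KO the classes were alike within counting error, at 0.07 (interval -0.23 to 0.37). No source used here names the deleted exons, and reads from the 3′ end may lie outside the deleted part. The CD25-low gate acts on the same gene's product, so these levels do not check the label on their own.

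Within both libraries, Ikzf2-zero cells were marked by genes of resting, lymph node-homing T cells at a higher level and by genes of Treg identity, activation and the follicular program at a lower level. Genes were counted where their mean over the sums compared reached 10 CPM. A gene under 10 CPM in 1 class was counted only where the other class was high enough, so its direction followed from that minimum. In Ikzf2-zero cells of CD25KO, 171 of 7146 (2.39%) were higher by 1.5-fold or more and 1142 (16.0%) lower by as much. In CD25WT, 76 of 6845 (1.11%) were higher and 651 (9.51%) lower. Counts of list members below are best read beside these shares of all genes. Of 7026 genes measured over all 4 sums, 57 (0.811%) were higher and 524 (7.46%) lower in both libraries. Past 2-fold there were 60 higher (0.84%) and 413 lower (5.78%) in CD25KO, 22 (0.321%) and 210 (3.07%) in CD25WT, and 15 (0.213%) and 198 (2.82%) in both. Scaling moved this balance: with trimmed-mean (TMM) factors the counts were 393 higher and 634 lower in CD25KO and 177 higher and 353 lower in CD25WT, with the median gene near 0.

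The largest ratios common to both libraries belonged to a small set of genes. Dapl1, known as a gene of early-stage and resting T cells, stood at 52.5 CPM in Ikzf2-zero and 0.711 CPM in Ikzf2-high cells of CD25KO, against 72.6 and 16.8 CPM in CD25WT. Its log2 ratio was 6.21 (interval 5.37 to 7.18) in CD25KO and 2.11 (1.87 to 2.35) in CD25WT. Igfbp4, which encodes a binding protein of insulin-like growth factors, stood at 80.3 and 2.13 CPM in Ikzf2-zero and Ikzf2-high cells of CD25KO, against 195 and 62.1 CPM in CD25WT. Ly6c1, a surface protein of the Ly6 family carried by resting Tregs, stood at 84.5 and 3.97 CPM in CD25KO and at 174 and 32.6 CPM in CD25WT. For these 3 genes the Ikzf2-zero value was the highest of its library and the Ikzf2-high cells of CD25KO were the lowest of the 4 classes.

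Satb1, a chromatin organizer of T cells, stood at 258 CPM in Ikzf2-zero and 62.7 CPM in Ikzf2-high cells of CD25KO, against 256 and 135 CPM in CD25WT. The Ikzf2-zero cells of both libraries were alike and the Ikzf2-high cells differed. Treml2, a receptor related to the TREM family, had the same form, with 49.4 and 7.17 CPM in CD25KO and 46.8 and 34.9 CPM in CD25WT. Among the other genes higher in both libraries were Txk, a Tec-family kinase (log2 ratio 1.65 in CD25KO and 1.16 in CD25WT), Socs3, a feedback inhibitor of cytokine signalling (1.30 and 1.02), Arl4c, a small GTPase (1.34 and 1.07), Ugcg, the glucosylceramide synthase (1.57 and 0.86), St8sia1, a sialyltransferase (2.04 and 0.81), Actn1, an actin crosslinker (1.52 and 0.86), and Gpr18, a G protein-coupled receptor (1.60 and 0.72).

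The genes lowest in Ikzf2-zero cells were Sostdc1, a secreted inhibitor made by follicular T cells, Il1r2, the decoy receptor of interleukin-1 found on follicular Tregs, and Itgb8, the integrin chain with which Tregs activate TGF-beta. Itgb8 stood at 3.40 CPM in Ikzf2-zero and 70.7 CPM in Ikzf2-high cells of CD25KO, against 2.61 and 46.5 CPM in CD25WT, or log2 ratios of -4.38 (interval -5.33 to -3.57) and -4.15 (-4.82 to -3.55). The classes were far apart in both libraries by about the same factor. Sostdc1 rested on 27 and 2539 UMIs in CD25KO and on 3 and 822 UMIs in CD25WT, and Il1r2 on 16 and 1448 UMIs in CD25KO and on 2 and 196 in CD25WT. The few UMIs of both genes in Ikzf2-zero cells make the size of their ratios uncertain: the CD25WT interval for Sostdc1 ran from -10.10 to -6.27.

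Also lower in both libraries were Pdcd1, the inhibitory receptor PD-1 (log2 ratio -2.93 in CD25KO and -3.59 in CD25WT), Tox2, a factor of follicular T cells (-2.68 and -3.70), Lag3, an inhibitory receptor (-2.29 and -3.18), and Cd83, an activation molecule (-2.60 and -3.96). Bhlhe40, a factor that governs cytokine production, had -2.42 and -3.18, and Ttn, the gene of titin, had -2.84 and -2.57. The chemokine genes Ccl5 (-2.78 and -4.99) and Cxcl10 (-3.32 and -4.42) and the enkephalin precursor Penk (-3.07 and -4.10) completed the 12. Single cells decided part of these: 168 of the 190 Ccl5 UMIs and 44 of the 56 Penk UMIs in CD25KO Ikzf2-zero cells came from 1 cell each. With the cell holding most UMIs left out of each class, the ratios of Ccl5 were -5.80 in CD25KO and -7.19 in CD25WT, those of Penk -5.21 and -4.91, and that of Sostdc1 in CD25KO was -5.56. In cells with a Foxp3 UMI, Penk within CD25KO had 0.98 (interval 0.48 to 1.46), the other direction.

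**Figure D2:**
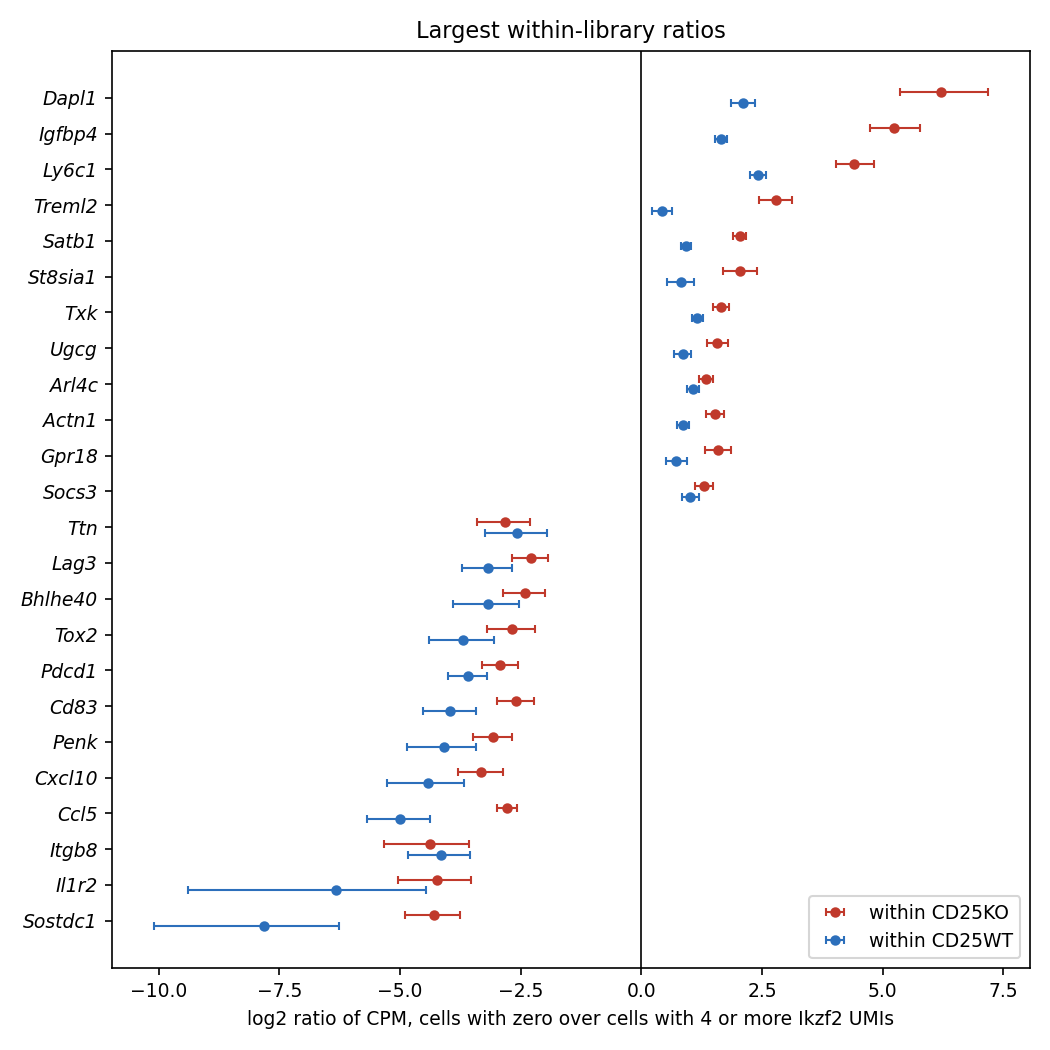
Log2 ratio of CPM, Ikzf2-zero over Ikzf2-high cells (x axis), for the 12 genes with the largest mean ratio in each direction (rows). Red points are within CD25KO and blue points within CD25WT, with 95% intervals for counting error. The higher genes have the larger ratio in CD25KO throughout, and 10 of the 12 lower genes have the more negative ratio in CD25WT.

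For the genes chosen for the largest ratios, cells with 1 to 3 Ikzf2 UMIs mostly lay between the classes. For the 12 higher genes, their level was between those of the zero and high classes in 12 of 12 in CD25KO and 11 of 12 in CD25WT, where Treml2 was the exception. For the 12 lower genes it was between in 12 of 12 in both libraries. This did not hold for all genes: Il2ra in CD25WT was found, after thinning, in 19.8%, 27.1% and 25.01% of cells with zero, 1 to 3 and 4 or more Ikzf2 UMIs, and unthinned in 29.8%, 39.1% and 37.3%. Igfbp4 in CD25WT had 195, 162, 147, 121, 124 and 50.7 CPM in cells with 0, 1, 2, 3, 4 and 5 or more Ikzf2 UMIs, highest at 0 and lowest at 5 or more. In CD25KO it had 80.3, 22.1, 16.2, 0.940, 11.5 and 1.46 CPM, with the largest step between 0 and 1 UMI. Nrp1 in CD25KO was lowest at 0 and highest at 5 or more, at 52.5, 78.2, 145, 181, 168 and 242 CPM.

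**Figure D3:**
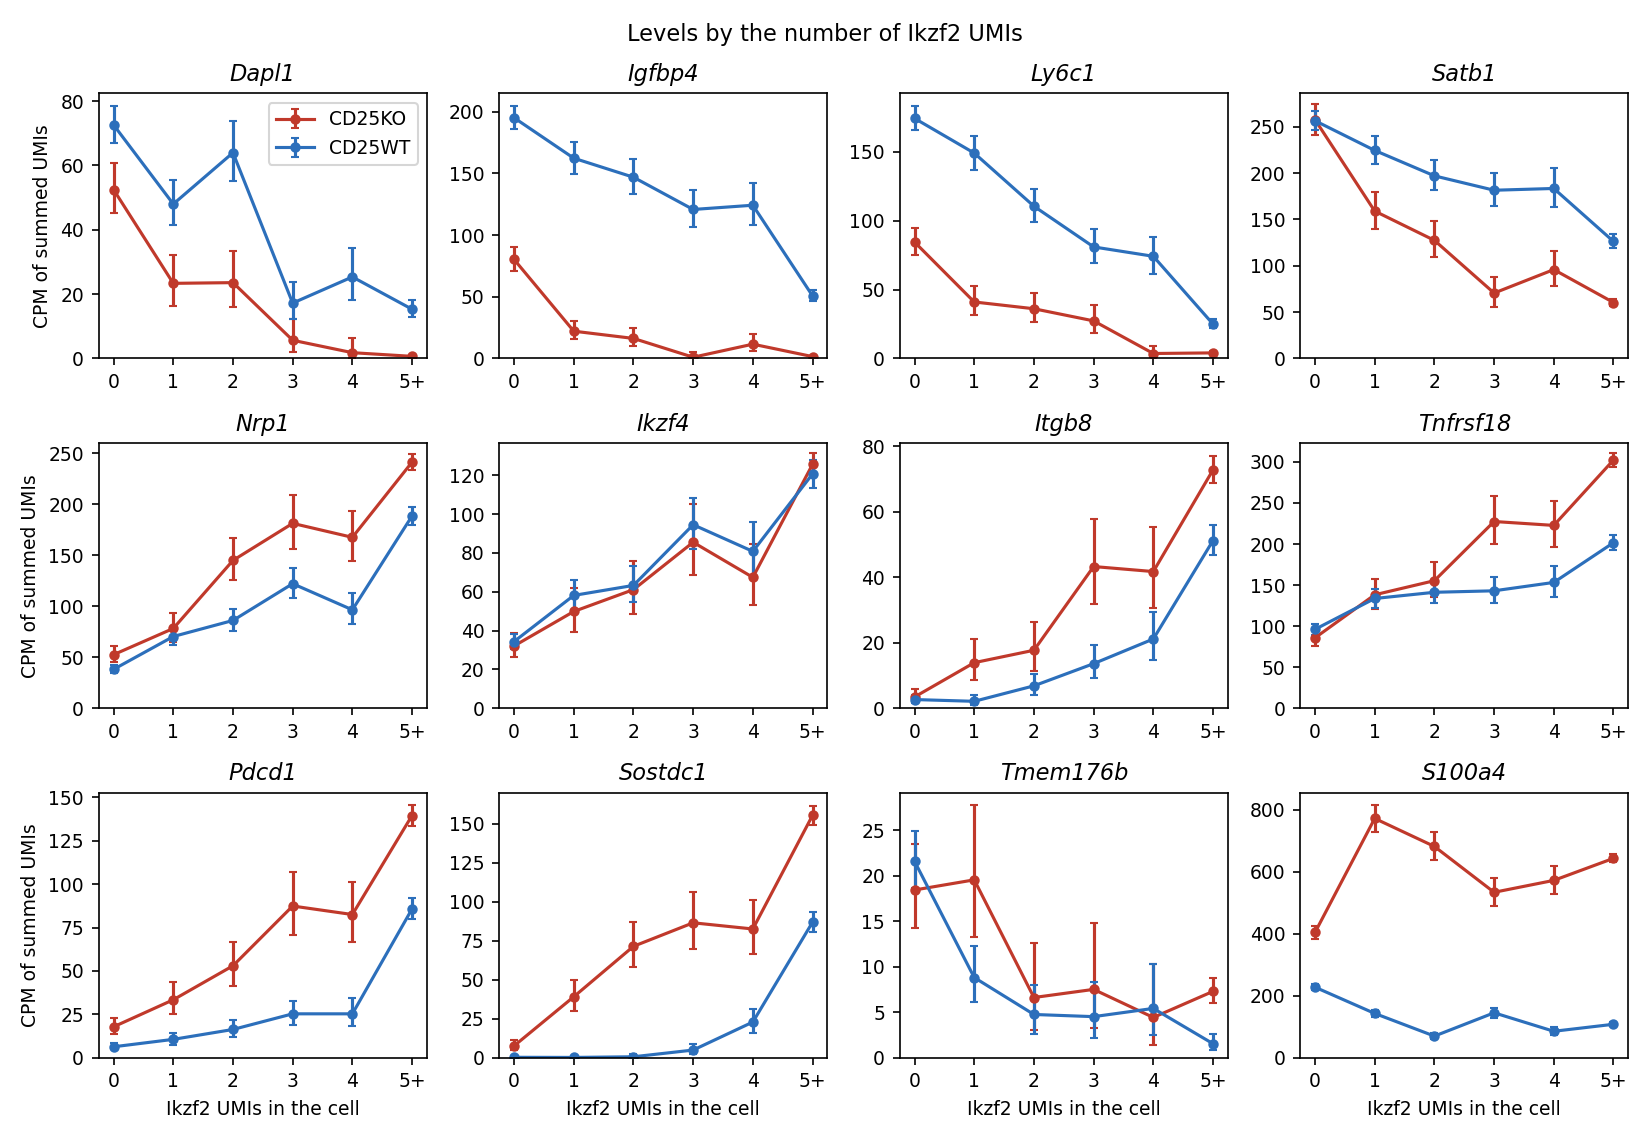
Summed level in CPM (y axis) of 12 genes in cells with 0, 1, 2, 3, 4 and 5 or more Ikzf2 UMIs (x axis), for CD25KO (red) and CD25WT (blue), with 95% Poisson intervals. Dapl1, Igfbp4, Ly6c1 and Satb1 are highest at 0 UMIs in both libraries, while Nrp1, Ikzf4, Itgb8, Pdcd1 and Sostdc1 are highest at 5 or more; S100a4 has its lowest CD25KO value at 0 UMIs and its highest CD25WT value there.

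Members of the Ikaros family other than Ikzf2 stood in both directions. Ikzf4 (Eos), a partner of Foxp3, stood at 32.1 CPM in Ikzf2-zero and 122 CPM in Ikzf2-high cells of CD25KO, against 34.3 and 115 CPM in CD25WT. Its log2 ratios of -1.93 and -1.74 made it lower in both libraries. Ikzf1 (Ikaros) was higher, at 167 and 100 CPM in CD25KO (0.74) and 142 and 110 CPM in CD25WT (0.37). Ikzf3 (Aiolos) had ratios of 0.21 (interval -0.01 to 0.42) and 0.47 (0.30 to 0.64), and Ikzf5 had -0.10 and 0.09, both with intervals that include 0.

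Treg identity genes were lower in Ikzf2-zero cells. Of 15 measured members, 13 were at least 1.5-fold lower in CD25KO and 12 in CD25WT, and none was higher. Of all genes, 16.0% and 9.51% were lower. The list medians were -1.38 and -1.33, beside -0.22 and -0.17 for all genes. Nrp1 (neuropilin-1), a surface marker of thymic Tregs, stood at 52.5 CPM in Ikzf2-zero and 237 CPM in Ikzf2-high cells of CD25KO, against 38.1 and 174 CPM in CD25WT, with log2 ratios of -2.17 and -2.20. Tnfrsf4 (OX40), a costimulatory receptor, stood at 103 and 453 CPM in CD25KO and at 64.8 and 226 CPM in CD25WT. Tnfrsf18 (GITR), of the same family, had ratios of -1.79 and -1.02. Izumo1r (folate receptor 4) had ratios of -1.11 and -1.47, and Nt5e (CD73), an enzyme that makes adenosine, had -1.77 and -1.13. Foxp3 was less far apart, at 15.9 and 25.2 CPM in CD25KO (-0.66, interval -1.09 to -0.26) and 29.5 and 38.5 CPM in CD25WT (-0.38, interval -0.61 to -0.15). Of 5 measured genes listed for the thymic type, 4 were lower in CD25KO and 5 in CD25WT; the gene that differed was Gpr83, with -0.36 in CD25KO and -1.33 in CD25WT. Swap70 (-1.73 and -1.97) and Tnfrsf9 (4-1BB, -2.37 and -2.81) were the others beside Nrp1 and Itgb8. Itgb8, Swap70, Entpd1, Itgae and Lrrc32 did not reach the 10 CPM minimum over the Ikzf2-zero cells of both libraries. Where measured, they were measured mainly through Ikzf2-high cells.

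Genes of the resting, central type were higher. In CD25KO 9 of 14 measured members were at least 1.5-fold higher, beside 2.39% of all genes, and none lower (median 0.97). In CD25WT 7 were higher, beside 1.11% of all genes, and 1, Id3, was lower (median 0.53). Ccr7, the chemokine receptor that guides cells into lymph nodes, stood at 134 CPM in Ikzf2-zero and 49.6 CPM in Ikzf2-high cells of CD25KO and at 169 and 111 CPM in CD25WT. Lef1, a factor of quiescent T cells, had ratios of 1.11 and 0.72, and Bach2, a repressor of effector genes, had 1.64 and 0.28. Klf2, which drives S1pr1, had 0.83 and 0.59. Its target S1pr1, the egress receptor, was under 1.5-fold at 0.49 and 0.46. Tcf7 (0.15 and -0.04), the partner of Lef1, and Il7r (-0.13 and 0.13), the receptor of interleukin-7, were within 1.5-fold. Id3, an inhibitor of E proteins that is also high in follicular Tregs, had -0.46 and -0.83.

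Per cell, resting markers were more frequent in Ikzf2-zero than in Ikzf2-high cells of both libraries. Cells were sorted by whether they had 2 or more UMIs, after thinning to 3000, of a resting group (Ccr7, Lef1, Tcf7), an effector group (Klrg1, Gzmb, S100a4, Icos) or a follicular group (Cxcr5, Pdcd1, Bcl6, Tox2). The resting group alone was met by 46.2% of Ikzf2-zero and 17.98% of Ikzf2-high cells in CD25KO, and by 49.97% and 32.1% in CD25WT. Unthinned, the shares were 53.7% and 18.7% in CD25KO and 66.4% and 46.5% in CD25WT. The effector group alone was met by 11.5% and 25.97% in CD25KO and by 6.40% and 7.95% in CD25WT, where the intervals overlapped. Unthinned, these were 9.97% and 21.2% in CD25KO and 5.45% and 6.61% in CD25WT. Follicular markers, alone or with others, were met by few Ikzf2-zero cells, with the follicular group alone in 0.273% and 5.76% in CD25KO and 0.239% and 4.96% in CD25WT. None of the groups was met by 35.8% and 30.02% in CD25KO and by 40.5% and 46.3% in CD25WT after thinning. The CD25-low gate, applied to CD25KO alone, can set such shares between the libraries.

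**Figure D4:**
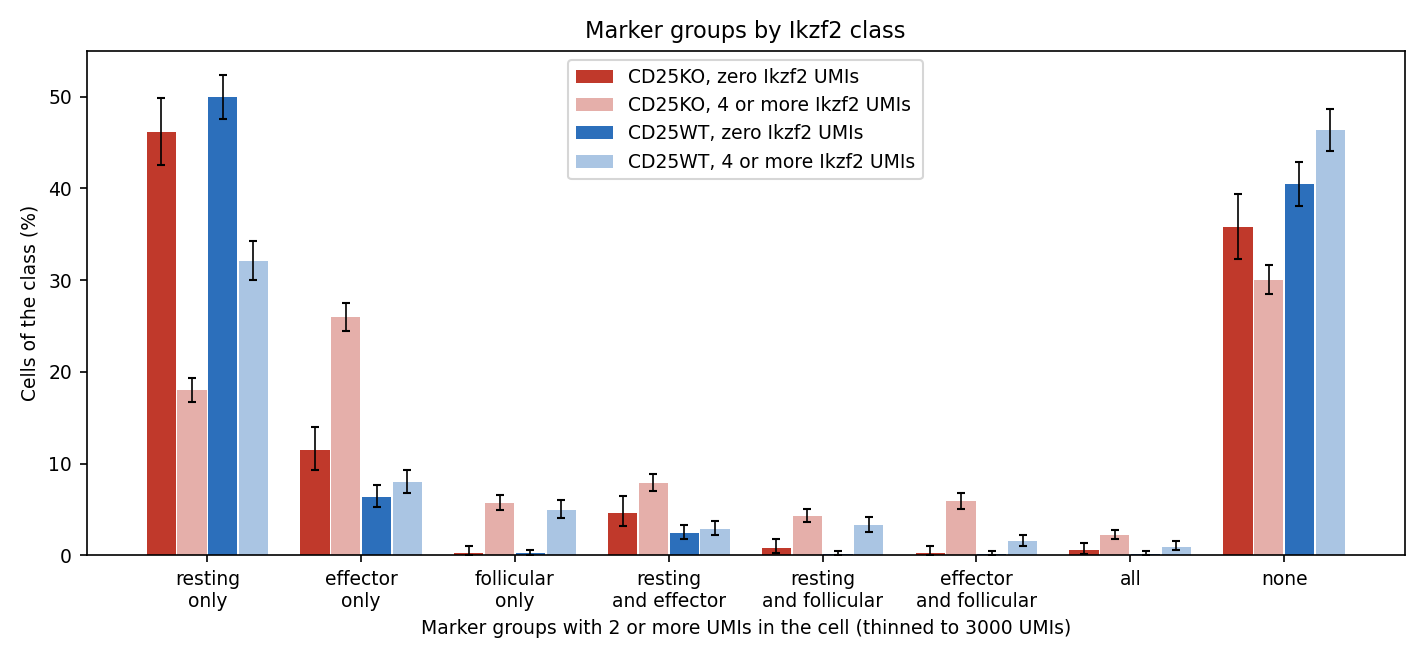
Percent of cells of each class (y axis) with 2 or more UMIs of the resting, effector or follicular marker groups, alone or together, after thinning to 3000 UMIs (x axis). Dark bars are Ikzf2-zero and pale bars Ikzf2-high cells, red for CD25KO and blue for CD25WT, with 95% Clopper-Pearson intervals. Resting markers alone are the largest group of Ikzf2-zero cells in both libraries, and follicular markers are nearly missing from them.

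Read the other way, the share of cells with zero Ikzf2 UMIs differed between marker groups within a library. Among cells with 2 or more resting-group UMIs it was 21.8% in CD25KO and 37.6% in CD25WT. Among cells with 2 or more follicular-group UMIs it was 2.13% in CD25KO and 5.08% in CD25WT. Effector-group cells differed in this share between the libraries, with 7.13% in CD25KO (interval 5.97% to 8.44%) and 29.1% in CD25WT (interval 25.3% to 33.2%). Cells with 2 or more UMIs of Ccr6 and Maf had 7.07% in CD25KO and 31.98% in CD25WT, and cells with 2 or more UMIs of Il1rl1, Areg and Gata3 had 4.79% and 19.5%. With Ikzf2 also counted after thinning, the shares were 26.6% and 46.9% for the resting, 3.65% and 6.36% for the follicular and 12.02% and 33.9% for the effector group in CD25KO and CD25WT.

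Some genes listed for Tregs of peripheral origin were higher in Ikzf2-zero cells. Of 4 measured members 2 were higher and 2 lower in CD25KO (median -0.10), and of 5 measured in CD25WT 3 were higher and 2 lower (median 1.25). The higher members, Tmem176a, Tmem176b and in CD25WT Ccr6, were below 10 CPM in Ikzf2-high cells. They were measured through the Ikzf2-zero cells and could only be called higher, so these counts are a description. Tmem176a and Tmem176b, which encode related membrane proteins, were higher in both libraries. Tmem176b stood at 18.4 and 7.11 CPM in CD25KO and at 21.6 and 2.15 CPM in CD25WT, and Tmem176a at 17.3 and 4.86 CPM in CD25KO and at 23.0 and 3.74 CPM in CD25WT. Ccr6, the receptor of the gut chemokine CCL20, was higher in CD25WT, with 15.1 and 6.36 CPM, and stood at 10.2 and 8.65 CPM in CD25KO (0.24, interval -0.33 to 0.77). Maf (-1.57 and -0.68) and Ahr (-1.61 and -0.97), transcription factors of several kinds of effector T cell, were lower in Ikzf2-zero cells of both libraries, but in cells with a Foxp3 UMI Maf within CD25WT had 0.29 (interval 0.04 to 0.53).

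In Ikzf2-zero cells, Tmem176b, Ccr6 and Cxcr6 were more frequent in cells with S100a4, a calcium-binding protein gene of effector and memory cells. This split was chosen after seeing the data and is a description. After thinning, 63 CD25KO and 107 CD25WT Ikzf2-zero cells had 2 or more S100a4 UMIs (8.61% and 6.40% of the class), as had 631 and 83 Ikzf2-high cells (19.3% and 4.43%). In CD25WT, Tmem176b was found in 33.6% of the S100a4 cells of the zero class and 2.41% of those of the high class, Ccr6 in 29.0% and 4.82%, and Cxcr6 in 31.8% and 7.23%. Unthinned, the Tmem176b shares were 43.0% and 4.82%. In CD25KO, Tmem176b was found in 14.3% and 1.27%, Ccr6 in 9.52% and 1.90%, and Cxcr6 in 27.0% and 21.9%. Igfbp4 was found in 0 of 63 CD25KO and 0 of 107 CD25WT S100a4 cells of the zero class after thinning, which allows up to 5.69% and 3.39%, and among Ikzf2-zero cells with no S100a4 UMI Tmem176b was found in 2.61% in CD25KO and 1.37% in CD25WT. No S100a4 UMI was found in 17 of the 29 CD25KO Ikzf2-zero cells with Tmem176b. In CD25KO Ikzf2-high cells with no S100a4 UMI, Tmem176b (1.995%) and Ccr6 (2.54%) were found no less often than in those with S100a4. Cxcr6 was less frequent without S100a4 in Ikzf2-high cells as well, at 2.45% in CD25KO and 0.571% in CD25WT. In CD25WT Ikzf2-high cells with no S100a4 UMI, Tmem176b was found in 0.628% and Ccr6 in 1.43%.

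Effector genes were lower in Ikzf2-zero cells of CD25KO and mixed in CD25WT. In CD25KO, 15 of 19 measured members were at least 1.5-fold lower in Ikzf2-zero cells, beside 16.0% of all genes, and none higher (median -0.9998). In CD25WT, 7 of 14 were lower and 3, S100a4, Ccr2 and Ly6a, were higher (median -0.53). Lower in both were Icos, a costimulatory receptor (-1.23 in CD25KO and -0.95 in CD25WT), Cxcr3, the receptor of Th1-type Tregs (-1.77 and -2.32), Batf, a factor of effector differentiation (-1.56 and -1.15), and Anxa2 (-0.99 and -1.60), which encodes annexin A2. Klrg1, a marker of terminal effector Tregs, had 1 UMI among 732 Ikzf2-zero cells of CD25KO and 356 UMIs in the Ikzf2-high cells, against 6 and 13 UMIs in CD25WT. Prdm1 (Blimp-1) stood at 4.82 and 29.1 CPM in CD25KO and at 5.79 and 7.49 CPM in CD25WT, and Fgl2, a suppressive secreted protein, at 3.69 and 31.4 CPM in CD25KO and at 3.86 and 4.77 CPM in CD25WT. For Klrg1, Prdm1 and Fgl2 the Ikzf2-high cells of CD25KO stood apart from the other 3 classes. These genes were below 10 CPM in Ikzf2-zero cells of CD25KO, so the minimum allowed them to be called lower only. The 19 and 14 measured genes are not the same set, so the counts of the libraries are not matched.

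Follicular regulatory genes were lower in Ikzf2-zero cells in both libraries, 8 of 9 measured members in CD25KO (median -1.77) and 7 of 8 in CD25WT (median -1.90). Of all genes, 16.0% and 9.51% were lower. Cxcr5, Sostdc1 and Il1r2 were below 10 CPM in Ikzf2-zero cells, so where measured they could only be called lower. The same held within CD25WT for Pdcd1 (6.36 CPM in Ikzf2-zero cells), Tox2 (2.39 CPM) and, in thinned cells, Bcl6. Most of the CD25WT calls thus had their direction set by the minimum, and the count of 7 of 8 is a description. Cxcr5, which guides cells into follicles, stood at 8.23 CPM in Ikzf2-zero and 21.1 CPM in Ikzf2-high cells of CD25KO, against 4.54 and 20.2 CPM in CD25WT. Bcl6, the master factor of the program, had ratios of -1.17 and -1.64, and Tox -1.77 and -1.42. Slamf6 was the member that stayed under 1.5-fold, at -0.46 and -0.34. Suppressive molecules were lower in 8 of 10 members in CD25KO and 5 of 7 in CD25WT, and none was higher. Of the 12 listed, 5 reached the minimum over the Ikzf2-zero cells of both libraries, so these counts rest partly on Ikzf2-high cells. Ctla4, the checkpoint receptor, stood at 90.2 and 180 CPM in CD25KO and at 101 and 144 CPM in CD25WT. Of the ST2 tissue-type list, all 5 measured members were lower in CD25KO, among them Gata3 at 81.4 and 173 CPM. Il1rl1, Areg and Nfil3 did not reach the 10 CPM minimum within CD25WT or over the Ikzf2-zero cells of both libraries. They were measured mainly through the Ikzf2-high cells of CD25KO, so the count of 5 is a description. In CD25WT 2 were measured, of which Gata3 (59.1 and 96.4 CPM) was lower, though at 0.0064 in cells with a Foxp3 UMI, and Rora had -0.43.

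Receptors of IL-2 other than Il2ra behaved alike in the libraries. Il2rb, the beta chain, stood at 110 CPM in Ikzf2-zero and 225 CPM in Ikzf2-high cells of CD25KO, against 109 and 237 CPM in CD25WT. Its log2 ratios were -1.03 and -1.13, and in Ikzf2-zero cells CD25KO over CD25WT was 0.02 (interval -0.15 to 0.19). Il2rg, the common gamma chain, had -0.09 and -0.10. Of 13 IL-2 and STAT5 responsive genes measured in CD25KO, 2 were higher (Socs3 and Myc) and 4 lower (Cish, Pim1, Prdm1 and Il1rl1). Of 12 in CD25WT, Socs3 was higher and Cish, Myc and Lrrc32 lower. Myc had opposite signs, with 20.4 CPM in Ikzf2-zero and 12.3 CPM in Ikzf2-high cells of CD25KO and 26.2 and 46.4 CPM in CD25WT. Lrrc32 (GARP), which docks latent TGF-beta on Tregs, stood at 4.25 and 11.4 CPM in CD25KO and at 8.29 and 40.1 CPM in CD25WT.

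Signs of antigen receptor stimulation were lower. Of 13 measured activation genes, 7 were lower in CD25KO and 6 in CD25WT, and none was higher. Of all genes, 16.0% and 9.51% were lower. Egr2 had -2.17 and -1.45 and Irf4 -1.24 and -1.66, both factors induced by receptor signals. Neither reached the 10 CPM minimum over the Ikzf2-zero cells of both libraries, so both were measured mainly through Ikzf2-high cells. Cd69 (-0.01 and 0.15) and Nr4a1 (-0.51 and -0.42) were under 1.5-fold. Of the 13 genes of the receptor complex, only Zap70 (-0.91) and Fyn (-0.67), kinases next to the receptor, were lower in CD25KO, and none was in CD25WT. Inhibitory and costimulatory receptors were lower in 9 of 14 in CD25KO and 8 of 14 in CD25WT.

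Of 12 measured apoptosis regulators, 4 were lower in CD25KO and 1, Bcl2l11 (0.67), was higher. Of 11 in CD25WT, 3 were lower and 0 higher. Lower in both libraries were Bcl2a1b (-1.93 and -1.67) and Bcl2a1d (-2.19 and -2.93), near-identical copies of an inhibitor of cell death between which reads can be split. The death receptor gene Fas (-0.82 and -0.77) was lower in both as well, and Bid in CD25KO alone. Bcl2 itself had 0.35 and -0.08. Of the cell cycle list, 6 of 11 measured genes were lower in CD25KO and 4 of 10 in CD25WT, beside 16.0% and 9.51% of all genes. Top2a, an enzyme of dividing cells, had -1.39 and -1.20. Top2a, Mki67 and Ube2c did not reach the 10 CPM minimum over the Ikzf2-zero cells of both libraries. Where measured, they were measured mainly through Ikzf2-high cells. Of the trafficking list, the integrin genes Itgb1 (-1.34 and -1.36), Itgal (-1.05 and -1.13) and Itga4 (-0.75 and -0.69) were lower in both libraries with nearly equal ratios. Gimap GTPases, which support lymphocyte survival, had 2 of 8 members lower in each library, with Gimap5 at -1.54 and -0.75, and medians of -0.32 and -0.27, near those of all genes. Of 14 measured glycolysis genes 3 were lower in CD25KO and 1, Tpi1, in CD25WT (-1.07 and -0.59), shares near the 16.0% and 9.51% of all genes that were lower. The 22 measured T cell transcription factors were split, with 6 higher and 4 lower in CD25KO and 4 higher and 5 lower in CD25WT.

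Of 16 measured cytokine receptors other than those of IL-2, 3 were higher in CD25KO: Il4ra (1.24), Il6ra (0.82) and Ifngr2 (1.17). More were lower there, 5 in all: Il10ra, Il18r1, Il18rap, Ifngr1 and Il1r2. In CD25WT, of 14 measured, Il6ra alone was higher by 1.5-fold (0.66) and Tgfbr1 alone lower. Of all genes, 2.39% were higher and 16.0% lower in CD25KO, and 1.11% and 9.51% in CD25WT. Il6ra, the receptor of interleukin-6, stood at 81.7 and 46.3 CPM in CD25KO and at 110 and 69.7 CPM in CD25WT. Interferon-response genes were higher in CD25KO for 8 of 23 measured members (median 0.34) and in CD25WT for 0 of 22 (median 0.07). Gbp2, an interferon-induced GTPase, stood at 119 CPM in Ikzf2-zero and 59.5 CPM in Ikzf2-high cells of CD25KO, against 64.4 and 54.9 CPM in CD25WT. Ifit3 stood at 39.4 and 16.3 CPM in CD25KO and at 25.2 and 23.8 CPM in CD25WT. For both genes the CD25KO Ikzf2-zero cells were the highest of the 4 classes. Among genes of conventional helper cells, Cd40lg, the ligand through which helper cells license B cells, had 0.52 and 0.81. Il2 had 62 UMIs in Ikzf2-zero and 51 in Ikzf2-high cells of CD25KO, against 19 and 12 in CD25WT, but 29 of the 62 came from 1 cell.

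**Figure D5:**
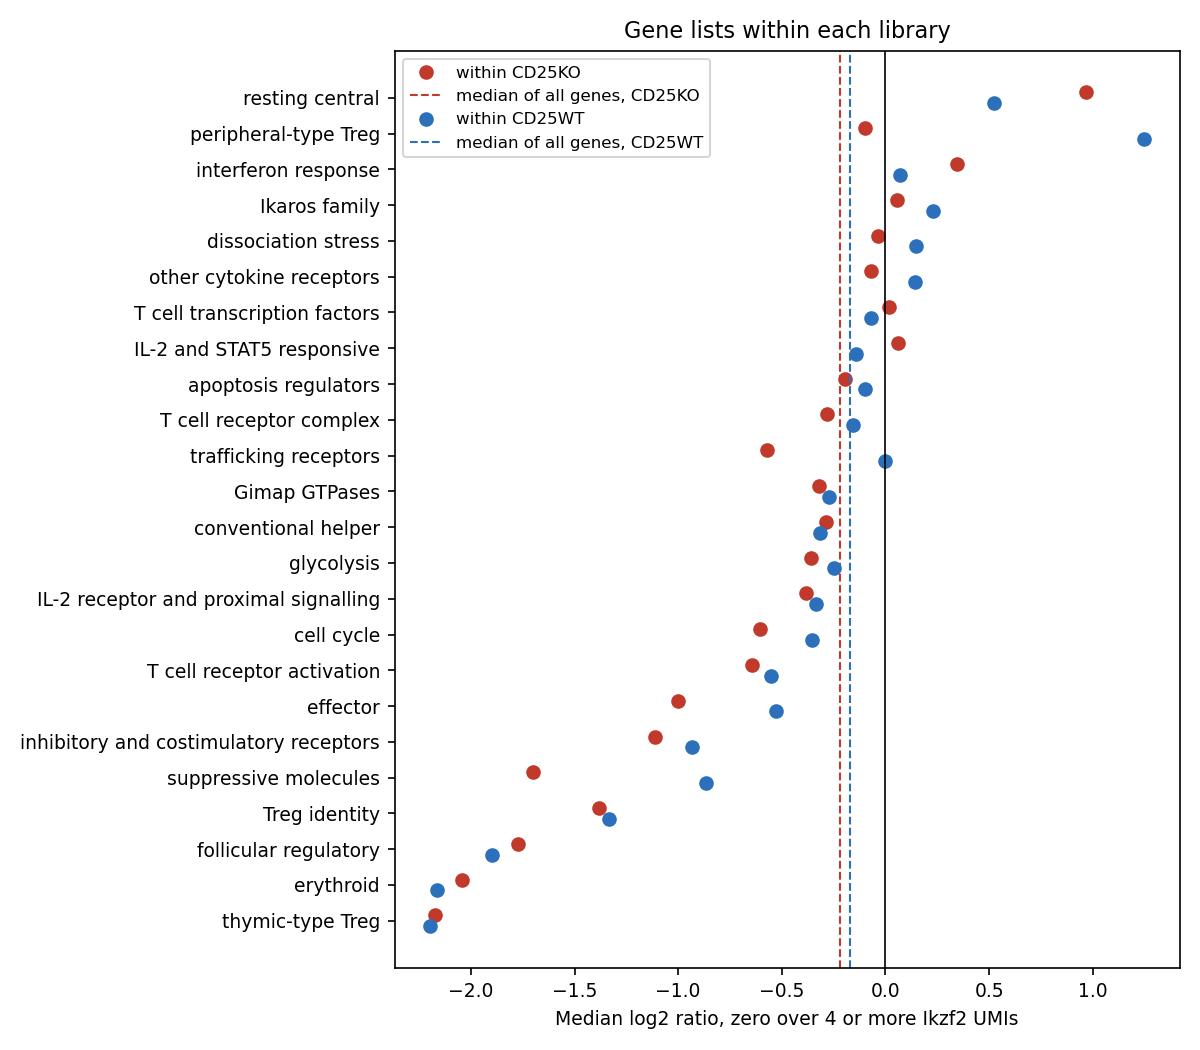
Median log2 ratio, Ikzf2-zero over Ikzf2-high cells (x axis), of the measured members of each gene list (rows), within CD25KO (red) and within CD25WT (blue). Dashed lines mark the median of all genes in each library. The resting central list has medians of 0.97 and 0.53, and the thymic-type list -2.17 and -2.20.

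Between the libraries, genes were more often higher than lower in CD25KO in both classes. CD25KO over CD25WT, 414 of 6687 genes (6.19%) stood higher by 1.5-fold or more and 80 (1.2%) lower in Ikzf2-zero cells, against 600 (8.27%) higher and 116 (1.6%) lower of 7256 in Ikzf2-high cells. Past 2-fold, 89 (1.33%) were higher and 24 (0.359%) lower in Ikzf2-zero cells, and 173 (2.38%) and 42 (0.579%) in Ikzf2-high cells. The median gene stood at 0.13 in Ikzf2-zero and 0.17 in Ikzf2-high cells. With TMM factors, 230 were higher and 158 lower in Ikzf2-zero cells. The gene sets tested and the UMIs behind each sum differ, so the counts of the 2 classes are not a test of one against the other.

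Among Ikzf2-zero cells, 11 of 14 measured effector genes stood higher in CD25KO by 1.5-fold or more, beside 6.19% of all genes, and none lower (median 0.96). In cells with a Foxp3 UMI, 51 in CD25KO and 232 in CD25WT, the median was -0.10 and S100a6 had -1.07 (interval -1.63 to -0.56), the other direction. Of other lists, 8 of 23 interferon-response genes, 6 of 14 inhibitory and costimulatory receptors and 3 of 5 follicular genes were higher in CD25KO. S100a6, a partner of S100a4, stood at 514 CPM in CD25KO and 205 CPM in CD25WT Ikzf2-zero cells (log2 ratio 1.33), and Icos at 153 and 66.8 CPM (1.19). Anxa2 stood at 55.3 CPM in CD25KO and 15.5 CPM in CD25WT Ikzf2-zero cells (1.84), Cxcr3 at 32.3 and 11.02 CPM (1.55) and Itgae, the integrin CD103, whose mean was below the 10 CPM minimum and which is not among the 14, at 11.3 and 4.09 CPM (1.47). These genes were also higher in CD25KO among Ikzf2-high cells, by 2.56 for S100a6, 1.48 for Icos, 1.23 for Anxa2, 1.01 for Cxcr3 and 1.13 for Itgae. The share of Ikzf2-zero cells with the effector group alone, 11.5% in CD25KO and 6.40% in CD25WT, moved with them, and its part was not tested.

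Ifitm2, an interferon-induced membrane protein, stood at 53.6 CPM in CD25KO and 2.95 CPM in CD25WT Ikzf2-zero cells, a log2 ratio of 4.18 (interval 3.59 to 4.83). Its 189 CD25KO UMIs came from 41 of 732 cells and its 26 CD25WT UMIs from 21 of 1671 cells. Nkg7, a granule protein of cytotoxic cells, stood at 57.0 CPM in CD25KO and 8.41 CPM in CD25WT (2.76). Cxcl10 (2.73) and Bhlhe40 (2.45) followed. Ccl5 (4.50), Sostdc1 (4.49), Il1r2 (4.32) and Penk (2.88) had ratios as large, but Ccl5 without its leading cell in each library had 3.78 (interval 2.22 to 5.78) and Penk 1.58 (0.25 to 2.95), and the Sostdc1 UMIs came from 4 CD25KO cells and 1 CD25WT cell. In cells with 4000 to 6000 UMIs Ccl5 had -0.24 (interval -1.86 to 1.14), so its direction was lost.

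Lower in CD25KO Ikzf2-zero cells was Mtmr9, a gene of the myotubularin family, with 9.36 CPM in CD25KO and 72.1 CPM in CD25WT (log2 ratio -2.95, interval -3.50 to -2.44). Gstp1, a glutathione transferase, stood at 14.5 CPM in CD25KO and 55.1 CPM in CD25WT (-1.93). Both were lower by about as much in Ikzf2-high cells, at -2.43 and -1.54. Socs2, a feedback inhibitor downstream of STAT5, had -1.35 in Ikzf2-zero and -0.78 in Ikzf2-high cells. Sesn1, a stress-response gene (-1.19), Rcn1, a calcium-binding protein of the endoplasmic reticulum (-1.09), and Ecm1, an extracellular matrix protein (-1.06), were also lower, and so was Igfbp4 (-1.28). Resting central genes as a list stood below the other genes, with 3 of 14 lower, none higher and a median of -0.20. Of all genes 1.2% were lower, and their median was 0.13. In Ikzf2-high cells 6 of 13 resting central genes were lower, with a median of -0.56, beside 1.6% and a median of 0.17 for all genes.

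The contrast of zero against high cells was wider in CD25KO for the resting genes. The difference between the within-library log2 ratios, CD25KO minus CD25WT, was at least 1.5-fold higher for 181 of 7026 genes (2.58%) and lower for 241 (3.43%), and at least 2-fold for 41 (0.584%) and 38 (0.541%). It was 4.10 for Dapl1 (interval 3.22 to 4.97), 3.58 for Igfbp4 and 2.36 for Treml2, and 6 of 14 resting central genes were past 1.5-fold in this direction and none in the other. The values above show where it lay: for Treml2 and Satb1 the Ikzf2-zero cells of the libraries had nearly the same level and the Ikzf2-high cells of CD25KO a lower one. Ifitm2 (2.66), Sostdc1 (3.52) and Ccl5 (2.22) were the others highest in this difference. The Sostdc1 value rests on 4 CD25KO and 1 CD25WT Ikzf2-zero cells, and without the leading cells the Ccl5 ratios were -5.80 and -7.19, closer to each other than with them.

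The difference was most negative for Cxcr6, a chemokine receptor of tissue-resident effector cells, at -3.08 (interval -3.71 to -2.46). Cxcr6 stood at 21.3 CPM in Ikzf2-zero and 42.7 CPM in Ikzf2-high cells of CD25KO, against 14.998 and 3.56 CPM in CD25WT, so the class with the higher level changed between libraries. S100a4 did the same, at 404 and 639 CPM in CD25KO and 228 and 105 CPM in CD25WT (difference -1.78), and S100a6, at 514 and 998 CPM in CD25KO and 205 and 169 CPM in CD25WT, had a difference of -1.23. Ccr2, the receptor that draws cells to inflamed tissue, stood at 48.5 and 53.6 CPM in CD25KO and at 25.8 and 8.89 CPM in CD25WT (-1.68). Lgals3 (galectin-3) stood at 48.5 and 52.0 CPM in CD25KO and at 13.5 and 5.15 CPM in CD25WT (-1.49), and Hmgn5, a nucleosome-binding protein gene, had -1.26. For these genes the Ikzf2-zero cells of CD25KO stood above those of CD25WT, except for Hmgn5 and, in cells with a Foxp3 UMI, S100a6 (-1.07) and Lgals3 (-2.98), while the Ikzf2-high cells of CD25KO stood further above.

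Cells with no Ccr7 or Lef1 UMI were also compared, a choice made with the data in view. There, the CD25KO ratios of S100a4 (0.56) and Cxcr6 (0.095) were above 0, as in CD25WT, and that of S100a6 was 0.0048. In the same cells Il2ra in CD25WT had 0.14, against -0.65 in all cells. Zero shares in those cells were 9.49% in CD25KO and 23.3% in CD25WT, and in cells with a UMI of either gene 21.2% and 35.8%.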

How the data were processed

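The authors deposited 1 matrix of raw UMI counts per library (32285 genes), which the file headers credit to Cell Ranger 6.0.0 and the submitters' processing notes to genome build mm10. No source used here names the counting annotation. The members, gene lists and named-gene rule were chosen with earlier results of these data known, and genes named outside the rule were chosen after their values were seen. UMIs were summed per class and library and scaled to CPM with all genes in the total. Ratios have exact conditional Poisson intervals, sums Poisson and shares Clopper-Pearson intervals, at 95%, for counting error only. The sums held 3525572 and 16880944 UMIs (Ikzf2-zero and Ikzf2-high, CD25KO) and 8801311 and 10685039 UMIs (CD25WT). Genes named were the 12 largest ratios each way in both libraries, 8 between libraries and 6 in the difference, above 20 CPM, with up to 4 per list. Some genes are not reported here and were left out of the lists, marker groups and alternatives. No doublet caller was run; the UMI limit, the Cd79a filter and an alternative without other-lineage UMIs stood in. Lists numbered 29. Calculations used Python 3.11.15, NumPy 2.4.6, SciPy 1.17.1 and pandas 2.3.3, TMM factors edgeR 4.0.16, and ratios were tested on simulated data.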

Additional observations from a re-analysis of the deposited data

Results flagged for a closer look

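Among the genes named by the rule, 3 had Ikzf2-zero over Ikzf2-high ratios of opposite sign with both intervals excluding 0 and at least 1 ratio past 1.5-fold. The difference CD25KO minus CD25WT was -3.08 for Cxcr6 (log2 ratios -1.01 and 2.08), -1.78 for S100a4 (-0.66 and 1.12) and -1.23 for S100a6 (-0.96 and 0.28). With 1 library per group the difference between groups was not tested, and the intervals cover counting error only.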

How the results depend on the processing

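No paired analysis was possible because there was 1 library per group, and for the same reason no replicate could be left out. Below, counts are of genes past 1.5-fold. TMM and median-of-ratios factors gave 393 and 416 higher and 634 and 614 lower within CD25KO, 177 and 189 higher and 353 and 335 lower within CD25WT, and 230 and 229 higher and 158 and 160 lower for CD25KO over CD25WT in Ikzf2-zero cells. Without ribosomal and mitochondrial genes in the total, 427 and 194 were higher within CD25KO and CD25WT, 213 lower between libraries and 444 higher in the difference of ratios. A 5 CPM minimum gave 261 higher within CD25KO, 128 higher and 990 lower within CD25WT, 656 higher and 154 lower between libraries, and 362 higher and 465 lower in the difference. No minimum gave 1461 and 3150 within CD25KO, 937 and 3101 within CD25WT, 2345 and 882 between libraries, and 1665 and 1519 in the difference, higher first. Thinning gave 124 lower between libraries, 290 and 372 in the difference, and zero shares of 19.3% in CD25KO and 41.9% in CD25WT. Cells with 4000 to 6000 UMIs gave 1069 lower within CD25WT, 155 lower between libraries, 432 and 485 in the difference, and shares of 17.6% and 37.4%. Cells with a Foxp3 UMI gave 904 and 1936 within CD25KO, 246 higher within CD25WT, 1659 and 800 between libraries, 1178 and 1649 in the difference, and shares of 10.5% and 27.7%. At most 5% mitochondrial UMIs gave 491 lower in the difference and shares of 20.8% and 36.7%. Cells with a Ccr7 or Lef1 UMI gave 421 lower in the difference and shares of 21.2% and 35.8%. Cells with neither gave 283 and 1213 within CD25WT, 750 and 362 between libraries, 626 and 665 in the difference, and shares of 9.49% and 23.3%. Taking 2 or more Ikzf2 UMIs as high gave 387 lower within CD25WT. The cause of these shifts was not tested; the smaller subsets hold fewer cells.

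Signs reversed as follows, as log2 ratios. In cells with 4000 to 6000 UMIs, between libraries, Ccl5 had -0.24 and the CD8 and cytotoxic median -0.11; within CD25KO, Hba-a2 had 0.66, Hba-a1 0.70, Hbb-bs 0.73, Hbb-bt 0.55 and the erythroid median 0.68. In cells with a Foxp3 UMI, Penk had 0.98 within CD25KO; Ecm1 0.16, Lgals3 -2.98, S100a6 -1.07 and the effector median -0.10 between libraries; and Gata3 0.0064, Maf 0.29, Mcm6 0.28, Hba-a2 0.13, Hbb-bs 0.36, Hbb-bt 0.57 and the erythroid median 0.24 within CD25WT. Without Mki67 or Top2a cells, Hba-a1 had 0.45 within CD25KO. In cells with a Ccr7 or Lef1 UMI, the peripheral-type median had -0.10 within CD25WT. In cells with neither, Cxcr6 had 0.095, S100a4 0.56, S100a6 0.0048 and Itgae 0.33 within CD25KO, and Il2ra 0.14 within CD25WT. The cause was not tested. Of the gene values, 2857 kept sign and size, 888 moved and 21 reversed; of list medians, 1136, 48 and 5. Values with under 20 UMIs in both sums together were not computed. A planned split by resting markers was not run as written. The split by Ccr7 and Lef1 and the alternative without the leading cell were chosen after seeing the data.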
